A study of Mus musculus with 6 samples.

Results

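The genes described here are 58 genes of the cell cycle: 15 of DNA replication, 4 transcription factors, 15 cyclins, cyclin-dependent kinases (CDKs) and CDC25 phosphatases, 18 of mitosis and 6 CDK inhibitors. They were fixed by symbol, and every gene probe that carried one of these symbols was taken, which gave 113 of the 56605 gene probes on the array. A gene was tested if at least 1 group had a probe for it that stood well above background in every mouse, and the brightest such probe stood for the gene. By this rule 57 of the 58 genes were tested, among 19087 genes tested of 37325 gene names on the array. Ccne2, cyclin E2, was the exception, because its single probe never stood well above background.

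A dividing cell copies its DNA in S phase and separates the copies in mitosis. Cyclins switch on the CDKs that drive each step, CDC25 phosphatases remove the phosphates that hold those kinases back, and the CDK inhibitors stop them. Successive waves of transcription carry the cycle: E2F factors, released when the retinoblastoma protein is phosphorylated, switch on replication genes, and the MuvB complex with B-Myb and FoxM1 later switches on mitosis genes through an element called the cell cycle genes homology region (CHR). In the epithelium of the normal colon, division is mostly confined to the stem and transit-amplifying cells of the lower crypt, and tumors extend it beyond them.

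The tissue was colon bearing tumors from male C57BL/6 mice, bought at 6 to 8 weeks of age. All mice had received azoxymethane (AOM, 10 μg/g), a carcinogen, and 7 days later 2% dextran sodium sulfate (DSS), which inflames the colon, in the drinking water for 5 days. Tumors were then left to develop for weeks, and the colons of some mice were examined for them before dosing began. The mice were therefore older at dosing than when bought. In this model of colitis-associated cancer, 3 mice were given RG@M-γ-CD by mouth and 3 were given PBS by mouth, with 1 array per mouse. RG@M-γ-CD is the multikinase inhibitor regorafenib held in mannose-modified γ-cyclodextrin, dosed at 30 μg/g (10 μg/g of regorafenib) for 21 days and followed by 14 days of observation, so the RNA was taken after dosing had ended. Mice given the carrier alone or free regorafenib were not analysed here, so drug and carrier cannot be told apart.

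Levels are log2 signals relative to each array's 75th percentile, so a level of 1 is 2-fold above that percentile, and a change is the mean of RG@M-γ-CD minus the mean of PBS on this scale. On each array 28103 to 31219 probes stood well above background. All 12 colon epithelium markers tested were well above background on every array. A heat map by the authors sets some arrays in the other group from the one their labels give. The arrays concerned are RG@M-γ-CD replicate 1 and PBS replicate 1. The labels were kept here, and results are also given without both arrays. In bulk tissue, fewer dividing cells and less RNA per dividing cell cannot be told apart.

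Almost every cell cycle gene was lower in the RG@M-γ-CD mice by a small amount, and none passed the test. Of the 57 genes, 53 had a lower mean and 4 a higher mean (Ccnd3, Cdkn1b, Cdkn2b and Cdkn2c), where 52.8% of all genes tested were lower by sign. The median change was -0.20, against -0.012 over all genes tested. After Benjamini-Hochberg adjustment of the limma p over all genes, 0 of the 57 passed 0.05, as did 0% of all genes. At an unadjusted limma p below 0.05, 2 of the 57 were called, both of them lower (Cdkn1a and Cdkn2a). The background at that threshold was 1.33% of all genes lower, 0.864% higher and 2.20% in either direction. All 3 RG@M-γ-CD mice lay below all 3 PBS mice for 2 genes (Cdkn1a and E2f2), where the share over all genes was 2.19%. No cell cycle gene lay above in all 3, where the share over all genes was 2.38% (4.57% without overlap in either direction). With 3 mice against 3, the smallest two-sided p that an exact permutation test of 1 gene can give is 0.1.

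**Figure D1:**
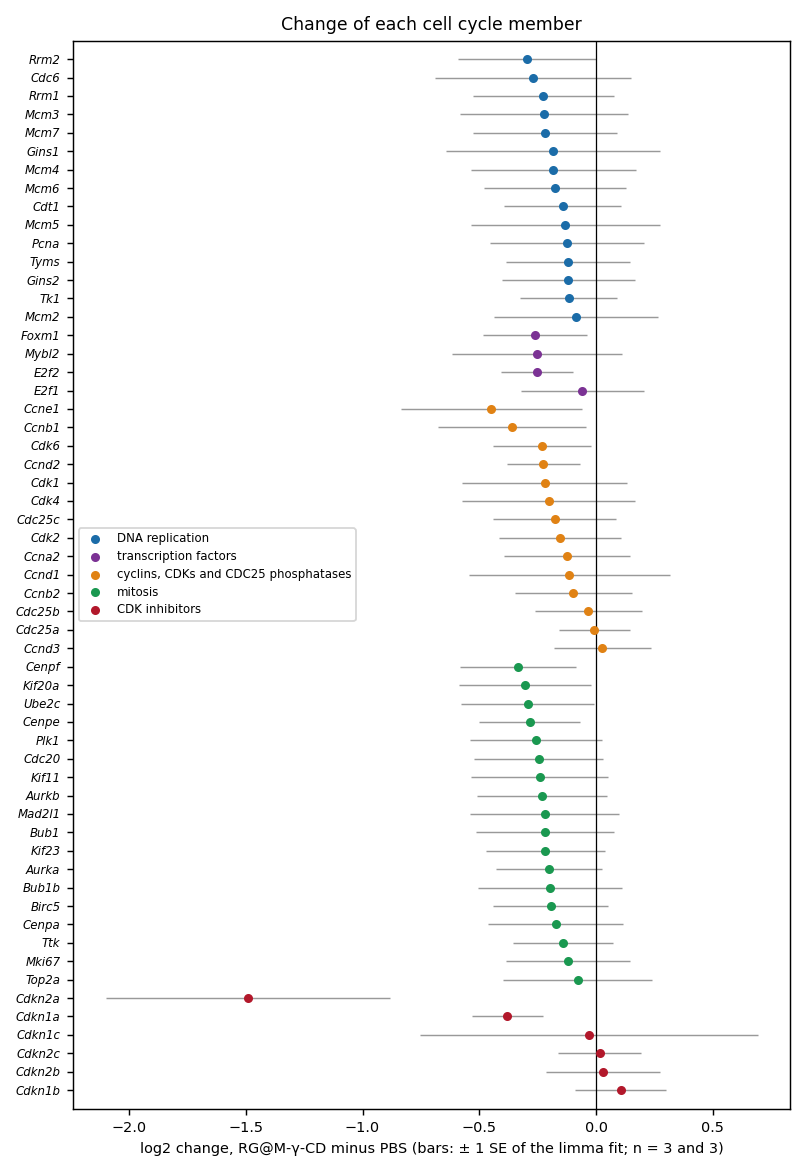
Log2 change of each of the 57 genes tested, RG@M-γ-CD minus PBS, with bars of 1 standard error from the limma fit (3 mice per group) and colours by role. Most points lie between -0.45 and 0 with bars that reach or nearly reach 0, and Cdkn2a at -1.49 stands apart.

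The direction of the shift rested on 1 mouse. RG@M-γ-CD replicate 2 had the lowest level for 51 of the 57 genes (89.5%), against 36.7% of all genes tested. Its median deviation from each gene's mean over the 6 arrays was -0.64 for the cell cycle genes and -0.096 for all genes. In the other RG@M-γ-CD mice the same median was 0.12 (replicate 1) and 0.23 (replicate 3), and in the PBS mice it was -0.044, 0.17 and 0.19. Replicates 1 and 3 thus lay within or above the range of the PBS mice. Without RG@M-γ-CD replicate 2, 41 of the 57 genes were higher and 16 lower, with a median change of 0.072 against 0.047 over all genes. Without RG@M-γ-CD replicate 1 and PBS replicate 1 together, 54 were lower and 3 higher, with a median of -0.39 and 0 past the adjusted threshold. Leaving out RG@M-γ-CD replicate 3 left 56 lower (median -0.35). Leaving out RG@M-γ-CD replicate 1 alone left 53 lower (median -0.30), and 168 of all genes tested passed the adjusted threshold, 0 of them among the 57. With the row of the slide as a block, 35 were lower and 22 higher, with a median of -0.054 against 0.097 over all genes.

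**Figure D2:**
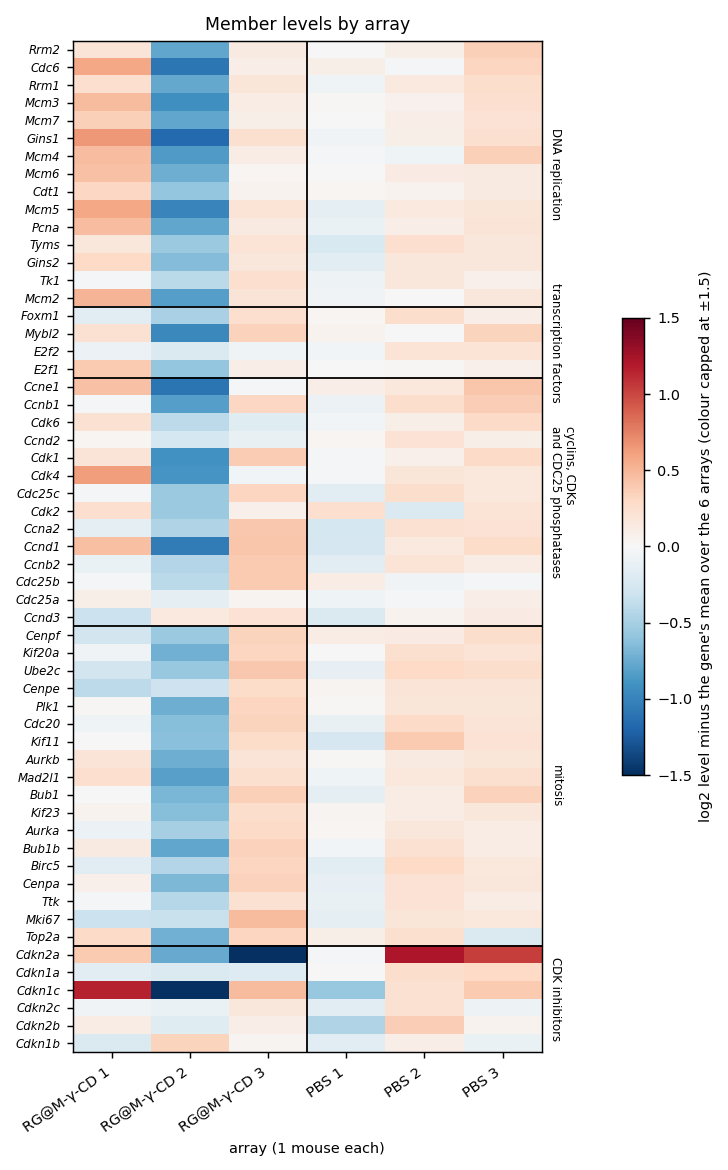
Level of each of the 57 genes (rows, grouped by role) on the 6 arrays (columns), as the log2 difference from the gene's mean over the arrays, where blue is below and red above that mean, and the colour is capped at 1.5. The column of RG@M-γ-CD replicate 2 is blue in nearly all rows outside the CDK inhibitors, the replication rows are reddest in RG@M-γ-CD replicate 1, and most mitosis rows in RG@M-γ-CD replicate 3.

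Markers of other cells also differed between these mice. The summed level (as multiples of the 75th percentile) of the 8 intestinal stem cell markers, all tested, was 69.2 in RG@M-γ-CD replicate 2 and between 115 and 202 in the other 5 mice. The 8 of 9 smooth muscle markers tested summed to 104, 675 and 809 in RG@M-γ-CD replicates 1 to 3 and to between 198 and 232 in the PBS mice. RG@M-γ-CD replicate 3, with the highest smooth muscle level, had the highest level of most mitosis genes. Replicate 2, with the next highest, had the lowest level of most cell cycle genes. Replicate 1, with the lowest smooth muscle level, had the highest level of most replication genes. The 10 macrophage and monocyte markers, all tested, summed to 67.4 in RG@M-γ-CD replicate 2 and 81.0 in replicate 3, and to between 150 and 174 in the other 4 mice. No marker of these 3 lists that was tested fell below background on any array. Other lists also set RG@M-γ-CD replicate 2 apart. The 8 endothelial markers summed to 30.7 there and to between 15.8 and 24.9 in the other 5 mice, and 7 of the 8 were highest in it. Of the 8 neutrophil markers 7 were lowest in it, with a median deviation of -2.26, against -1.18 in replicate 3 and 0.054 to 1.36 in the other 4 mice, and on the array with the fewest 4 of the 8 stood above background. Their sum, 80.0, was not the lowest, which was 47.0 in replicate 3. The 6 of 8 T cell markers tested summed to 3.65 and 4.14 in RG@M-γ-CD replicates 2 and 3 and to between 5.85 and 7.64 in the other 4 mice. The 7 of 8 markers of enteric neurons and glia tested summed higher in both, at 9.22 and 11.8 against 3.92 to 6.83, as did the 8 fibroblast markers, at 160 and 157 against 89.7 to 126. The 4 of 9 squamous epithelium markers tested summed lowest in replicate 2 (11.9, against 16.1 to 26.9), as did the 3 of 6 germinal centre B cell markers (6.25, against 6.41 to 8.85). The 3 of 9 exocrine pancreas markers tested summed highest in it (128, against 64.8 to 116). Their median deviation was nevertheless lowest in it (-1.51), with 1 of the 3 highest and 1 lowest there. On the array with the fewest, 1 of these 3 stood above background. The sums of B cell and plasma cell markers in the treated mice lay within the PBS range. Their part in the cell cycle values was not tested.

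All 15 replication genes were lower in the mean of the RG@M-γ-CD mice, between -0.30 (Rrm2) and -0.086 (Mcm2), with a median of -0.18 and 0 at an unadjusted p below 0.05. RG@M-γ-CD replicate 2 was the lowest mouse for 15 of the 15 and replicate 1 the highest for 11. The median was larger in size without replicate 1 (-0.44), without replicate 1 of both groups (-0.50) and without RG@M-γ-CD replicate 3 (-0.27), and turned to 0.18 without replicate 2. Pcna, the clamp that holds DNA polymerase on its template, read 5.59, 4.34 and 5.25 in RG@M-γ-CD replicates 1 to 3 and 5.02, 5.22 and 5.32 in PBS replicates 1 to 3, a change of -0.13 (SE 0.33, exact permutation p = 0.900). Mcm2, a subunit of the replicative helicase, read 1.66, 0.32 and 1.35 under RG@M-γ-CD and 1.1, 1.16 and 1.32 under PBS, a change of -0.086 (SE 0.35, exact permutation p = 1.0). For both, the highest and the lowest mouse belonged to the treated group, and the PBS mice lay between them. Mcm5, of the same helicase, read 2.94, 1.36 and 2.56 under RG@M-γ-CD and 2.22, 2.5 and 2.54 under PBS, a change of -0.13 (SE 0.40, exact permutation p = 1.0). Cdc6, which loads the helicase at origins, read 0.50, -1.17 and 0.020 under RG@M-γ-CD and 0.014, -0.094 and 0.25 under PBS, a change of -0.27 (SE 0.42, exact permutation p = 0.900). Again RG@M-γ-CD replicates 1 and 2 lay on either side of the PBS mice. Rrm2, the regulated subunit of the ribonucleotide reductase that makes deoxynucleotides, read 3.45, 2.47 and 3.39 under RG@M-γ-CD and 3.24, 3.34 and 3.61 under PBS, a change of -0.30 (SE 0.30, exact permutation p = 0.600). Tk1, a thymidine kinase of the salvage pathway, read 2.67, 2.29 and 2.94 under RG@M-γ-CD and 2.62, 2.86 and 2.77 under PBS, a change of -0.12 (SE 0.21, exact permutation p = 0.700). In Rrm2 and Tk1 the groups overlapped too, and only RG@M-γ-CD replicate 2 lay below all PBS mice. The other helicase subunits (Mcm3, Mcm4, Mcm6 and Mcm7), the loader Cdt1, the helicase activators Gins1 and Gins2, Rrm1 and the thymidylate synthase Tyms had changes between -0.23 and -0.12.

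The 4 transcription factors were lower by a median of -0.25, which became 0.037 without RG@M-γ-CD replicate 2 and -0.37 without replicate 3. E2f1, an activator of replication genes, read 0.52, -0.45 and 0.22 under RG@M-γ-CD and 0.12, 0.14 and 0.20 under PBS, a change of -0.059 (SE 0.26, exact permutation p = 1.0). E2f2, its close relative, read 2.48, 2.35 and 2.5 under RG@M-γ-CD and 2.53, 2.78 and 2.78 under PBS, a change of -0.25 (SE 0.15, exact permutation p = 0.100). E2f2 was the 1 factor whose groups did not overlap, although PBS replicate 1 lay just above the nearest treated mouse and its second probe overlapped between the groups. Foxm1, which drives genes of mitosis, read 0.74, 0.43 and 1.17 under RG@M-γ-CD and 0.94, 1.18 and 1.02 under PBS, a change of -0.26 (SE 0.22, exact permutation p = 0.300). Mybl2, which encodes B-Myb, read 2.27, 1.08 and 2.38 under RG@M-γ-CD and 2.09, 2.03 and 2.37 under PBS, a change of -0.25 (SE 0.36, exact permutation p = 0.900). In both, RG@M-γ-CD replicate 2 was the lowest mouse and RG@M-γ-CD replicate 3 stood within or just above the PBS range.

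Of the cyclins, CDKs and CDC25 phosphatases tested, 13 of 14 were lower, with a median change of -0.16 and 0 at an unadjusted p below 0.05. The median was -0.31, 0.067 and -0.28 when RG@M-γ-CD replicates 1, 2 and 3 were left out in turn, -0.27 without PBS replicate 1 and -0.34 without replicate 1 of both groups. Ccnd1, cyclin D1, which carries growth signals to CDK4 and CDK6, read 4.93, 3.42 and 4.89 under RG@M-γ-CD and 4.22, 4.62 and 4.75 under PBS, a change of -0.12 (SE 0.43, exact permutation p = 1.0). Ccnd2, cyclin D2, read 6.75, 6.45 and 6.59 under RG@M-γ-CD and 6.74, 6.93 and 6.8 under PBS, a change of -0.23 (SE 0.16, exact permutation p = 0.200). Ccnd3, cyclin D3, was the exception in sign and read 3.57, 4.04 and 4.11 under RG@M-γ-CD and 3.67, 3.94 and 4.02 under PBS, a change of 0.027 (SE 0.21, exact permutation p = 0.900). In cyclin D1 the 3 treated mice spanned more than the whole PBS range on both sides, whereas in cyclin D3 RG@M-γ-CD replicate 2 was among the higher mice. Cdk6, a partner of the D cyclins, read 2.48, 1.86 and 2.08 under RG@M-γ-CD and 2.22, 2.35 and 2.55 under PBS, a change of -0.23 (SE 0.21, exact permutation p = 0.300). Ccne1, cyclin E1, which acts at the start of S phase, read 2.25, 0.72 and 1.79 under RG@M-γ-CD and 1.91, 1.97 and 2.23 under PBS and had the most negative change of this role, -0.45 (SE 0.39, exact permutation p = 0.500). Most of that difference came from RG@M-γ-CD replicate 2, and without it the change was -0.014. Ccna2, cyclin A2, which acts in S phase and G2, read 3.42, 3.1 and 3.96 under RG@M-γ-CD and 3.29, 3.78 and 3.77 under PBS, a change of -0.12 (SE 0.27, exact permutation p = 0.700). Ccnb1, cyclin B1, which starts mitosis with CDK1, read 2.16, 1.36 and 2.5 under RG@M-γ-CD and 2.1, 2.45 and 2.55 under PBS, a change of -0.36 (SE 0.32, exact permutation p = 0.600). Cdk1 itself read 1.41, 0.30 and 1.59 under RG@M-γ-CD and 1.18, 1.29 and 1.5 under PBS, a change of -0.22 (SE 0.35, exact permutation p = 0.900). In these 3 genes RG@M-γ-CD replicate 3 stood within or above the PBS range and replicate 2 below it. Ccnb2, Cdk2, Cdk4, Cdc25a, Cdc25b and Cdc25c had changes between -0.20 and -0.0073.

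All 18 mitosis genes were lower in the mean, between -0.33 (Cenpf) and -0.078 (Top2a), with a median of -0.22 and 0 at an unadjusted p below 0.05. Leaving out RG@M-γ-CD replicate 2 turned the median to 0.026, and leaving out replicate 3 gave -0.41, against -0.36 without replicate 1 of both groups. RG@M-γ-CD replicate 2 was the lowest for 17 of the 18 genes, and replicate 3 the highest for 16. Mki67, which encodes the proliferation marker Ki-67, read 4.4, 4.39 and 5.2 in RG@M-γ-CD replicates 1 to 3 and 4.57, 4.9 and 4.88 in PBS replicates 1 to 3, a change of -0.12 (SE 0.26, exact permutation p = 0.800). Top2a, the topoisomerase that untangles chromosomes, read 3.82, 2.81 and 3.86 under RG@M-γ-CD and 3.62, 3.77 and 3.32 under PBS, a change of -0.078 (SE 0.32, exact permutation p = 1.0). Ki-67 was lowest in RG@M-γ-CD replicates 1 and 2, almost equal, and highest in replicate 3. Top2a was lowest in RG@M-γ-CD replicate 2, followed by PBS replicate 3. The other passing probes of Top2a, which were not tested, had larger falls of -0.35, -0.26 and -0.17. The mice were not in the same order on all of them. The first was lowest in RG@M-γ-CD replicate 2, while the others were lowest in RG@M-γ-CD replicate 1 and highest in PBS replicate 1. Cdc20, the activator of the anaphase-promoting complex, read 3.96, 3.39 and 4.37 under RG@M-γ-CD and 3.92, 4.31 and 4.22 under PBS, a change of -0.25 (SE 0.28, exact permutation p = 0.700). Aurka, the spindle pole kinase Aurora A, read 3.05, 2.64 and 3.43 under RG@M-γ-CD and 3.17, 3.31 and 3.25 under PBS, a change of -0.20 (SE 0.23, exact permutation p = 0.600). Plk1, a kinase needed from mitotic entry to division, read 4.12, 3.37 and 4.41 under RG@M-γ-CD and 4.11, 4.28 and 4.28 under PBS, a change of -0.26 (SE 0.28, exact permutation p = 0.700). All 3 were highest in RG@M-γ-CD replicate 3, above every PBS mouse, and lowest in replicate 2. Birc5, which encodes survivin of the chromosomal passenger complex, read 4.78, 4.51 and 5.28 under RG@M-γ-CD and 4.78, 5.25 and 5.12 under PBS, a change of -0.19 (SE 0.25, exact permutation p = 0.600). Cenpf, a kinetochore protein, read 1.9, 1.63 and 2.52 under RG@M-γ-CD and 2.3, 2.31 and 2.45 under PBS, a change of -0.33 (SE 0.25, exact permutation p = 0.400). Cenpe, a kinetochore motor, was the 1 mitosis gene lowest in another mouse, at 2.81 in RG@M-γ-CD replicate 1 and 2.9 in replicate 2, against 3.24 to 3.4 in the PBS mice. The checkpoint genes Bub1, Bub1b, Mad2l1 and Ttk, the kinesins Kif11, Kif20a and Kif23, the Aurora B kinase Aurkb, the centromeric histone Cenpa and the ubiquitin-conjugating enzyme Ube2c had changes between -0.30 and -0.14.

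The 6 CDK inhibitors did not share one pattern: 3 were lower and 3 higher in the mean, with a median change of -0.0085. Both cell cycle genes at an unadjusted p below 0.05 were among them. Cdkn1a, which encodes p21, an inhibitor induced by p53, read 2.91, 2.86 and 2.89 in RG@M-γ-CD replicates 1 to 3 and 3.08, 3.34 and 3.37 in PBS replicates 1 to 3. The treated mice differed little among themselves (SD 0.022, against 0.16 in the PBS mice) and all lay below all PBS mice, a change of -0.38 (SE 0.15, exact permutation p = 0.100). The limma p was 0.0446 before adjustment and 1.0 after it. Cdkn2a, which encodes p16Ink4a and p19Arf, read 1.95, 0.80 and -0.30 under RG@M-γ-CD and 1.55, 2.77 and 2.6 under PBS, a change of -1.49 (SE 0.61, exact permutation p = 0.200). The limma p was 0.0473 before adjustment and 1.0 after it. It was the only cell cycle gene with a 2-fold change at that p, but its groups overlapped, since RG@M-γ-CD replicate 1 lay above PBS replicate 1. Across the leave-outs the change of Cdkn1a ran from -0.48 to -0.33 and that of Cdkn2a from -2.44 to -0.93. Cdkn1c, which encodes p57, read 5.34, 2.51 and 4.67 under RG@M-γ-CD and 3.62, 4.42 and 4.58 under PBS, a change of -0.032 (SE 0.72, exact permutation p = 1.0). Its range was exceeded only by that of Cdkn2a, with RG@M-γ-CD replicate 1 the highest mouse, replicate 2 the lowest and nearly equal means in the 2 groups. Cdkn2b, which encodes p15Ink4b, read 3.37, 3.08 and 3.36 under RG@M-γ-CD and 2.8, 3.62 and 3.3 under PBS, a change of 0.029 (SE 0.24, exact permutation p = 0.800). Cdkn1b, which encodes p27, had the largest positive change of the cell cycle genes and read 2.43, 2.98 and 2.69 under RG@M-γ-CD and 2.49, 2.75 and 2.55 under PBS, a change of 0.10 (SE 0.19, exact permutation p = 0.700). It was highest in RG@M-γ-CD replicate 2, the mouse in which the other roles were lowest. Cdkn2c, which encodes p18Ink4c, had a change of 0.015.

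**Figure D3:**
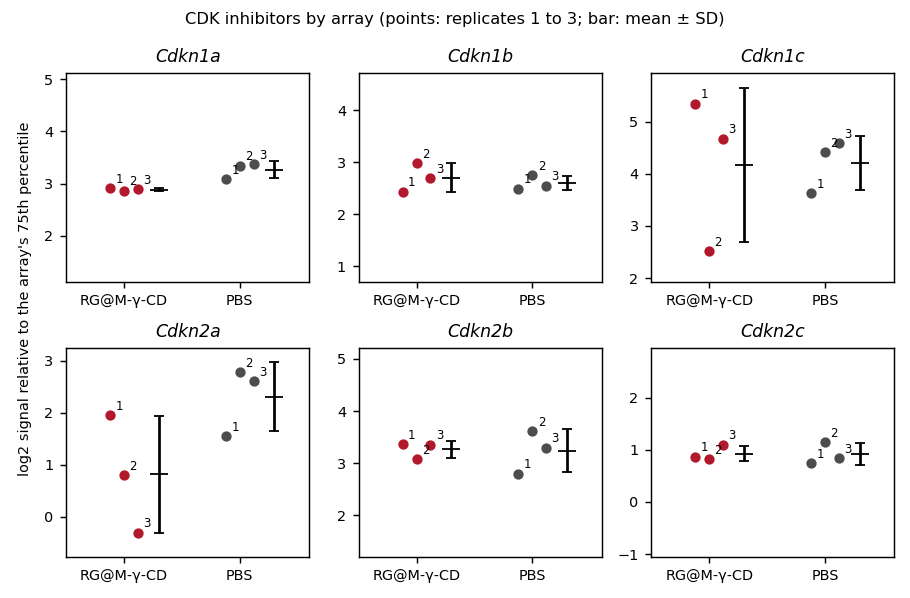
Log2 signal relative to the array's 75th percentile of the 6 CDK inhibitors in each mouse (points numbered by replicate), with the mean and SD of each group beside them. All panels span 4 log2 units. The treated mice are below the PBS mice in Cdkn1a without overlap, overlap with them in Cdkn2a, and spread from 2.51 to 5.34 in Cdkn1c.

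Other probes bear on both inhibitors. A second Cdkn1a probe that passed the filter, designed against another transcript of the gene, read -3.85, -4.59 and -4.8 under RG@M-γ-CD and -1.34, -2.2 and -1.86 under PBS. It stood above background in 1 of the 3 treated mice and in 3 of the 3 PBS mice, and the groups did not overlap. The second Cdkn2a probe read -2.31, -4.5 and -6.23 under RG@M-γ-CD and -3.0, -1.51 and -1.8 under PBS, above background in 1 of the 3 treated mice and 3 of the 3 PBS mice, with the same order of mice as the first. These probes were singled out after their values were seen, were not part of the test, and passed only through the PBS group, which favours a lower treated level. Over all roles, 31 of the genes had more than 1 passing probe, and in 30 of them the probes gave changes of one sign, with Cdk6 the exception. RG@M-γ-CD replicate 2 was the lowest mouse on 30 of the 46 passing probes that were not the ones tested. It was the highest on 3 of them, of Tyms, Ccnd3 and Cdkn1b, although the tested probe of Tyms was lowest in it.

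The treated mice also differed from each other in which wave of the cycle was highest. In replication genes RG@M-γ-CD replicate 1 stood highest, with a median deviation of 0.44 against 0.14 in replicate 3. In mitosis genes the order was turned, -0.010 in replicate 1 against 0.32 in replicate 3. Replicate 3 was above replicate 1 in 2 of 15 replication genes (median difference -0.32), in 17 of 18 mitosis genes (0.32) and in 7 of 14 cyclins, CDKs and CDC25 phosphatases (0.072). Over all genes tested, replicate 3 was above replicate 1 in 8961 of 19087, with a median difference of -0.025. Of 40 further replication genes (polymerases, origin and clamp loader subunits and others) 7 were higher in replicate 3 (-0.20), and of 48 further mitosis genes (condensins, kinetochore and spindle proteins and others) 44 were (0.28). These are 2 mice, so the difference has no replicate check and no test. Replicate 1 is also among the arrays that the authors' heat map sets in the other group. The smooth muscle markers summed to 104 in replicate 1 and 809 in replicate 3, and their part in this difference was not tested.

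**Figure D4:**
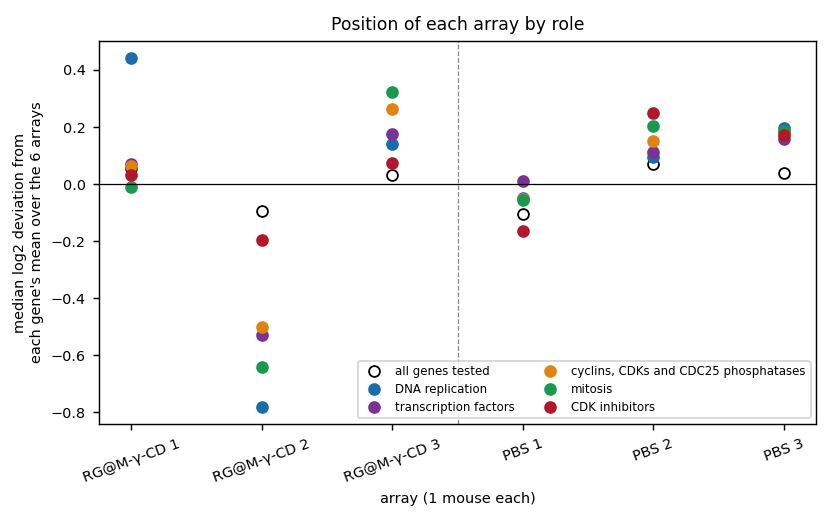
Median log2 deviation of each array from the genes' means over the 6 arrays, for each role (filled points) and for all genes tested (open points). RG@M-γ-CD replicate 2 lies at -0.64 in mitosis and -0.78 in replication, while replicate 1 is highest in replication and replicate 3 in mitosis.

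Among the genes with a promoter window, the CHR was found mostly in mitosis genes and an E2F motif only outside them, and Cdk1 and E2f2 held both. Windows from 250 bases before to 50 bases after the transcription start (RefSeq, GRCm38.p6) were given for 46 of the 58 genes, and were searched on both strands for the CHR (TTTGAA), the CCAAT box (CCAAT) and an E2F motif (TTTCCCGC, TTTCGCGC, TTTGCCGC or TTTGGCGC). There were 6 genes with 2 windows, E2f2 among them, and a motif in either window counted. The CHR and the E2F motif of E2f2 may thus lie in different windows. The CHR was in 12 of 16 mitosis genes (75%), in 1 of 12 replication genes (8.33%) and in 20.2% of 27025 genes with a window. An E2F motif was in 0 of 16 mitosis genes, in 6 of 12 replication genes (50%) and in 2.6% of all. The CCAAT box was in 14 of 16 mitosis genes (87.5%), in 8 of 12 replication genes (66.7%) and in 41.1% of all. In the further genes the split was less sharp. The CHR was in 27 of 41 further mitosis genes with a window (65.9%) and in 6 of 33 further replication genes (18.2%), against 15.1% of the 11912 genes tested that had a window. An E2F motif was in 5 of 41 (12.2%) and in 12 of 33 (36.4%), against 4.34% of the genes tested. Outside the CDK inhibitors, RG@M-γ-CD replicate 3 was above replicate 1 in 15 of 16 genes with the CHR (median difference 0.27). Without the CHR it was above in 9 of 25 (-0.078). With an E2F motif it was above in 2 of 10 (-0.26), E2f2 and Cdk1, which also hold the CHR. Without an E2F motif it was above in 22 of 31 (0.26). Most genes with the CHR were mitosis genes, so motif and role overlapped. A motif match is a description of these letters and not a binding site. The 150 bases that end just before the start, upstream of every RefSeq transcript of the gene, are printed 5′ to 3′ for 5 genes that show each arrangement, with the motifs of either strand in capitals (a motif of the opposite strand reads as its reverse complement). Neighbouring E2F matches overlap in Mcm6. Mcm6 (chr1:128359706-128359855, minus strand) holds E2F motifs, and Mcm2 (chr6:88898781-88898930, minus strand) is the replication gene with the CHR. Cdk1 (chr10:69352913-69353062, minus strand) holds both, and Cdc20 (chr4:118437344-118437493, minus strand) and Ube2c (chr2:164769779-164769928, plus strand) are mitosis genes with the CHR next to CCAAT boxes.
Mcm6: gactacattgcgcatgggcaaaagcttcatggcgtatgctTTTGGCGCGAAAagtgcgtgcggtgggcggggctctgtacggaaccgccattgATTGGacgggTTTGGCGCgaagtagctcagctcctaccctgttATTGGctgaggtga
Mcm2: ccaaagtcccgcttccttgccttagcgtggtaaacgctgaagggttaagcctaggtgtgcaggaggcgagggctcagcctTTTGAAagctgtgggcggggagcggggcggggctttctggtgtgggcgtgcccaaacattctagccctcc
Cdk1: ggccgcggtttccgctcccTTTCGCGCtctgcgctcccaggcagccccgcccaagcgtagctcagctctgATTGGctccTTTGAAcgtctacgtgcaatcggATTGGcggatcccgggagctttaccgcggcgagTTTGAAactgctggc
Cdc20: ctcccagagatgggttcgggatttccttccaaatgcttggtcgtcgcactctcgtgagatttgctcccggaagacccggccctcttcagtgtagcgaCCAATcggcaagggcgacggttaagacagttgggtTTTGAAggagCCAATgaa
Ube2c: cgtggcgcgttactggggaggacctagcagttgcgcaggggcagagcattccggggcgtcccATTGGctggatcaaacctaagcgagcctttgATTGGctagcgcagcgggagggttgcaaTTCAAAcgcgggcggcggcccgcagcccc
The levels of these genes in RG@M-γ-CD replicates 1 and 3 were 5.14 and 4.72 for Mcm6, 1.66 and 1.35 for Mcm2, 1.41 and 1.59 for Cdk1, 3.96 and 4.37 for Cdc20, and 3.32 and 4.0 for Ube2c. Mcm2, with the CHR and no E2F motif, was lower in replicate 3 like most replication genes, and Cdk1, with both motifs, was higher there like most mitosis genes.

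**Figure D5:**
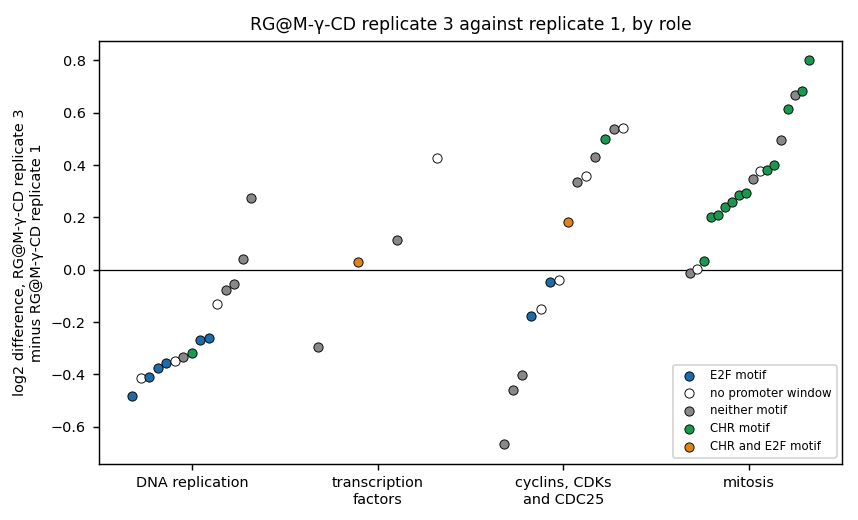
Log2 level of RG@M-γ-CD replicate 3 minus replicate 1 for each gene tested, by role (each point is 1 gene, sorted within its role) and coloured by the motifs in its promoter window. Most replication genes lie below 0 and most mitosis genes above it, and the points with an E2F motif alone lie below 0.

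Among 142 further cell cycle genes, all tested, 120 were lower in the mean of the RG@M-γ-CD mice (52.8% of all genes tested were) and 0 passed the adjusted threshold. In DNA replication 37 of 40 were lower (median -0.11) and in mitosis 47 of 48 (median -0.19). Clspn, the checkpoint mediator claspin, had the most negative change of the former at -0.32 (SE 0.20), and Cenpm, a centromere protein, of the latter at -0.55 (SE 0.37). RG@M-γ-CD replicate 2 was the lowest mouse for 37 of those 40 and 46 of those 48. The partners and relatives of RB, E2F and MuvB were split evenly, 9 of 18 lower (median -0.019). In this list 1 gene of the 18 was without overlap (5.56%, near the 4.57% of all genes), and 0 were at an unadjusted p below 0.05. That gene was Rbl2, which encodes the pocket protein p130 of resting cells. It read -0.66, -0.61 and -0.57 under RG@M-γ-CD and -0.84, -0.79 and -0.89 under PBS, a change of 0.23 (SE 0.14). Of the checkpoint kinases and CDK regulators 15 of 18 were lower (median -0.061).

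Targets of p53 other than Cdkn1a were lower in 12 of 18 genes (66.7%, against 52.8% of all genes tested), with a median change of -0.33. At an unadjusted p below 0.05, 1 of the 18 was called (2.20% of all genes), and 2 of the 18 were without overlap (11.1%, against 4.57%). The gene called was Eda2r, a receptor of the TNF receptor family, which read -2.6, -3.95 and -3.54 in RG@M-γ-CD replicates 1 to 3 and -2.09, -1.4 and -1.28 in PBS replicates 1 to 3, a change of -1.77 (SE 0.40). All treated mice lay below all PBS mice, and the limma p was 0.00349 before and 1.0 after adjustment. The adjusted limma p was 0.0454 without RG@M-γ-CD replicate 1 (change -2.16), 0.0823 without replicate 1 of both groups (change -2.41) and 1.0 in the other 5 leave-outs. Mdm2, the ubiquitin ligase that holds p53 down, was the other target without overlap, at 3.64, 3.52 and 3.49 under RG@M-γ-CD and 3.79, 3.81 and 4.05 under PBS, a change of -0.33 (SE 0.15). Btg2, an antiproliferative target, had the largest positive change, 0.64 (SE 0.53), from RG@M-γ-CD replicate 2 alone (4.77, against 2.66 to 2.99 in the other 5 mice). The median deviation of the p53 targets was lowest in RG@M-γ-CD replicate 3 (-0.26), where mitosis genes were highest. The next lowest was in replicate 2 (-0.19), where mitosis genes were lowest, against -0.00052 to 0.16 in the remaining mice. The p53 targets thus did not follow the order of the mitosis genes in either direction.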

How the data were processed

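Colon tissue bearing tumors from 3 RG@M-γ-CD and 3 PBS mice was measured on one-color Agilent mouse arrays, scanned once on 1 slide. The authors deposited the intensity of each spot as written by Feature Extraction (version 10.7.1.1), already background-corrected, and a table of log2 values that they had normalized, whose columns correlated with the same array's intensities at 0.999 or more. Groups and replicate numbers are those of the labels, and nothing says that the mice shared litters or cages.

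From the deposited intensities, outlier spots were dropped (790 over all arrays), the log2 signal was taken relative to each array's 75th percentile over gene probes, and spots of 1 probe were averaged. A probe counted as well above background on an array where at least 0.5 of its spots were. The brightest passing probe stood for a gene. Groups were compared with limma (3.58.1, R 4.3.3), adjusting p over all 19087 genes with a threshold of 0.05. The methods' t-test uses equal variances. The limma fit was also run on simulated data with independent noise for each gene and large changes. Those data held no shift shared by many genes of a mouse and no small changes, so the run does not check such cases. The 113 probes of the genes described keep the symbols of the array's design. Every other probe took the RefSeq symbol found through its accession, or the design's symbol where none was found. An accession gave a symbol for 32994 of the 56605 gene probes, and 0 of the 113 probes disagreed with it. Promoter windows are from RefSeq (GRCm38.p6).

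The genes, roles, wider lists and markers were chosen with earlier results of these data known. Levels and changes are given for a short list of genes fixed by symbol, for the most negative and most positive change of each role and for any called before adjustment, and the rest by range. Alternatives were quantile normalization, normexp (offset 50), the authors' table, other probe filters, averaging the probes of a gene, keeping outlier spots, replicate and slide row blocks, the methods' t-test and leaving out mice. Slide row 1 held the RG@M-γ-CD arrays and PBS replicate 1, and row 2 the other PBS arrays, so row and group are partly confounded. The number of arrays limits the precision.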

Additional observations from a re-analysis of the deposited data

How the results depend on the processing

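Quantile normalization, the authors' table, outlier spots kept and the stricter filter left the counts over the 57 genes and their signs as reported (53 lower, 4 higher, 2 at an unadjusted p below 0.05, 0 past the adjusted threshold). The count at an unadjusted p below 0.05 was 1 with normexp background correction, with no filter on dim probes, with the mean of a gene's probes and with the methods' t-test (0 of the 57 at its 2-fold threshold), and 0 with the replicate block and with the slide row as a block. The labels do not say whether the replicate numbers pair mice. Deviations of same-numbered mice correlated at -0.25, -0.233 and 0.136, and those of mice with different numbers at -0.331 to 0.413. Each deviation is from a mean of 3 arrays, so these values cannot decide whether mice were paired. The replicate block left 0 genes past the adjusted threshold, as did the fit without a block. With the slide row as a block, the median over all genes was 0.097 and that of the CDK inhibitors 0.19, and these changes turned positive: Mki67 0.092, Pcna 0.042, Mcm2 0.0069, Mcm5 0.067, Tk1 0.017, Ccna2 0.20, Ccnd1 0.20, Birc5 0.073, Cdkn1c 0.55. Leaving out 1 mouse, or RG@M-γ-CD replicate 1 and PBS replicate 1 together, the genes past the adjusted threshold ran from 0 to 168 (the latter with RG@M-γ-CD replicate 1 left out) and the cell cycle genes at an unadjusted p below 0.05 from 0 to 2. The median change ran from -0.39 to 0.072 (all 57 genes), -0.50 to 0.18 (DNA replication), -0.37 to 0.037 (transcription factors), -0.34 to 0.067 (cyclins, CDKs and CDC25 phosphatases), -0.41 to 0.026 (mitosis), -0.36 to 0.10 (CDK inhibitors), highest without RG@M-γ-CD replicate 2 except for the CDK inhibitors (without PBS replicate 2). Single changes that turned sign in at least 1 leave-out ran from -0.39 to 0.017 (Mki67), -0.24 to 0.22 (Cdkn2b), -0.26 to 0.26 (Top2a), -0.47 to 0.23 (Pcna), -0.41 to 0.31 (Mcm2), -0.56 to 0.33 (Mcm5), -0.65 to 0.21 (Cdc6), -0.55 to 0.021 (Rrm2), -0.27 to 0.055 (Tk1), -0.29 to 0.22 (E2f1), -0.49 to 0.16 (Mybl2), -0.36 to 0.072 (Ccna2), -0.53 to 0.38 (Ccnd1), -0.47 to 0.18 (Cdk1), -0.47 to 0.012 (Cdc20), -0.48 to 0.040 (Plk1), -0.91 to 0.80 (Cdkn1c), -0.075 to 0.19 (Ccnd3), -0.035 to 0.24 (Cdkn1b), -0.48 to 0.15 (Mcm6), for most of them without RG@M-γ-CD replicate 2. The cause of these shifts was not tested. With 3 mice per group, only changes well beyond the spread between mice could pass, and the signal of a probe is limited by its distance from background.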
